A study of Mus musculus with 105 samples.

Results

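The keratin genes Krt7, Krt8, Krt17, Krt18 and Krt19 were followed across mouse embryonic stem cell lines in which Polycomb repression had been removed or altered. They were picked by name, as 5 of the 53656 gene symbols listed for 2 of the datasets and, by Entrez identifier, as 5 of the 27179 genes listed for the other 3. All 5 passed the filter on low counts in every dataset. Keratins build intermediate filaments from pairs of a type I and a type II protein. Krt8 and Krt7 encode type II keratins and Krt18, Krt19 and Krt17 type I keratins. Krt8 and Krt18 form the main pair of simple, single-layered epithelia and of early extraembryonic epithelia, Krt7 and Krt19 accompany them in ductal and other simple epithelia, and Krt17 is better known from skin appendages and injured epidermis.

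The series measured poly(A) RNA in 5 datasets, with 3 libraries in each of 35 groups and counts for 93 libraries in 31 of them. Its subject is repression by histone marks, and most lines lack SUZ12, a core subunit of PRC2, which is the Polycomb methyltransferase for histone H3. The 12 samples given the KDM4 inhibitor QC6352 were not analysed here. The fusion panel, made in E14TG2a cells without treatment, held WT, Suz12 KO, and Suz12 KO carrying WT SUZ12, S12N, S12N:SUV2, S12N:SUV2*, S12N:SD2 or S12N:SD2*. S12N is SUZ12 without its VEFS domain, the starred fusions are those the titles call dead, and the labels do not spell out SUV2 or SD2. Both RBBP5 sets were made in E14TG2a cells with FKBP-tagged RBBP5, a subunit of the complexes that methylate another residue of histone H3. Each held the tagged line (R), the same line with a Suz12 KO (RS) and RS with a fusion, S12N:SUV2 in one set and S12N:SD2 in the other. Every line received the degrader dTAG13 or DMSO for 24 h, at 500 nM in the set with SD2 and at a dose the labels do not give in the set with SUV2. The degron set used TCF cells whose SUZ12 carries an auxin-inducible tag (WT+SUZ12-mAID+OsTIR), exposed to 50 µM IAA during 2, 4, 8, 24 or 48 h, with DMSO during 48 h as control. The HP1 set, in untreated E14Tg2a cells, held Wild type, Suz12 knockout, and the knockout with Suz12 Full length, with Suz12 dVEFS (S12N) or with a fusion of S12N and the HP1a chromodomain. Each genotype of a dataset is its own line, so a genotype and a line cannot be told apart, and the labels give no batch. In the panel, though, only the column names of WT and Suz12 KO hold the word Ebdiff. Their library totals ran from 8.80M to 10.69M counts, against 17.04M to 29.97M in the panel's other groups. Comparisons of those other groups with WT or the knockout cross this split, and its part was not tested. The labels give RS the same line name in both RBBP5 sets, so the sets measure one knockout line again rather than a second one.

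Library totals ran from 5.48M to 29.97M counts. Suz12 averaged 294 CPM (counts per 1M of the TMM-scaled library size) in the panel's WT and 56 in its knockout, and the knockout groups of the other 3 datasets had 32.0, 59.3 and 61.2 CPM against 384, 325 and 296 in their parents. In the degron set the target is the protein, so its RNA checks nothing. The pluripotency gene Pou5f1 had group means of at least 562 CPM everywhere. Libraries stood apart within 2 groups. Replicate 3 of R with dTAG in the set with SD2 differed from replicates 1 and 2 with a chi-square per degree of freedom of 81.1 and 66.1. Replicate 3 of the degron cells after 24 h differed by 123 and 168, where no other pair of replicates exceeded 26.2. Results that rest on these groups are given with and without that library.

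The genes lie in 2 keratin clusters of GRCm38. Krt8 (chromosome 15, 101996698 to 102004482, minus strand) and Krt18 (chromosome 15, 102028180 to 102032027, plus strand) have their starts facing each other across 23.7 kb. Krt7 (chromosome 15, 101411043 to 101430313, plus strand) lies 566.4 kb away in the same cluster. Krt19 (chromosome 11, 100140810 to 100148665, minus strand) and Krt17 (chromosome 11, 100256217 to 100261029, minus strand) are 107.6 kb apart. The promoters of Krt8, Krt18 and Krt7, which all rose with loss of SUZ12, are shown because the RefSeq table used held a window for these 3 members. Each window holds the 300 bases from 250 before to 50 after the RefSeq start, on the gene's own strand of GRCm38.p6, at chr15:102004293-102004592 for Krt8, chr15:102027966-102028265 for Krt18 and chr15:101412153-101412452 for Krt7. Capitals mark matches on either strand to the TATA box letters TATAAA, which overlap each other in Krt8, and to the GC box letters GGGCGG.
Krt8: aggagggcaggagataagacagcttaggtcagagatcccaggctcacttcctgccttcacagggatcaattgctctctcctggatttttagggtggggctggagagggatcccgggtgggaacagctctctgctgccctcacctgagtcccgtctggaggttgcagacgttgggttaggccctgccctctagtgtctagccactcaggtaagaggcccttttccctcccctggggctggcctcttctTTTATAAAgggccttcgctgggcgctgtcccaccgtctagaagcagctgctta
Krt18: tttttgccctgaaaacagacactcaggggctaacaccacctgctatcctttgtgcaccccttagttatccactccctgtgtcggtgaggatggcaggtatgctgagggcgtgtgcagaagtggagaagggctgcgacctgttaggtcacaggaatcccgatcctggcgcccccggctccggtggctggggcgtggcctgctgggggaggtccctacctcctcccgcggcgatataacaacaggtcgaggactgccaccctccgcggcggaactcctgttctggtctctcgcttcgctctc
Krt7: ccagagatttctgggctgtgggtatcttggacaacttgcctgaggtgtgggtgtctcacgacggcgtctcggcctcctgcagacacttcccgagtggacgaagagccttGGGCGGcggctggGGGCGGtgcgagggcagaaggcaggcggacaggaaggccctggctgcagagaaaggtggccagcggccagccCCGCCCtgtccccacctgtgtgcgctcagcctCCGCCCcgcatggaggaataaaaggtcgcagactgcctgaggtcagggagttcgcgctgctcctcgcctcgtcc
The Krt8 window held TATA letters, as did 13.6% of 32851 RefSeq promoter windows of the same length. Its matches begin at -3 and -1 from the RefSeq start, so they lie on the annotated start and not upstream of it. The Krt7 window held 4 GC boxes, and 35.7% of all windows held at least 1. No window of the 3 matched the AP-1 letters TGANTCA (7.81% of all windows) or CCAAT (37.4%). CpG dinucleotides, which mark many Polycomb-bound promoters, numbered 6 in Krt8, 17 in Krt18 and 21 in Krt7, against a median of 7. These matches describe letters and are no evidence of binding.

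Loss of SUZ12 was compared in 4 datasets, which hold at most 3 separate knockout lines because RS is shared by both RBBP5 sets. Krt8, Krt18, Krt7 and Krt19 rose and Krt17 fell in every one of these comparisons. All 5 genes passed in each comparison, beside 47.1% of all genes tested in the panel (23.8% higher, 23.2% lower), 71.8% in the RBBP5 set with SUV2 (36.9% and 34.9%), 59% in the one with SD2 (31.8% and 27.2%) and 41.8% in the HP1 set (22.2% and 19.6%). A share called of that size makes passing alone common. The direction was the same in each dataset. For each gene the 3 libraries of the knockout did not overlap the 3 of its parent. The share of all genes without overlap was not computed, so this describes the members and adds nothing to the calls. In bulk RNA, more cells with a keratin and more keratin RNA per cell cannot be told apart.

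**Figure D1:**
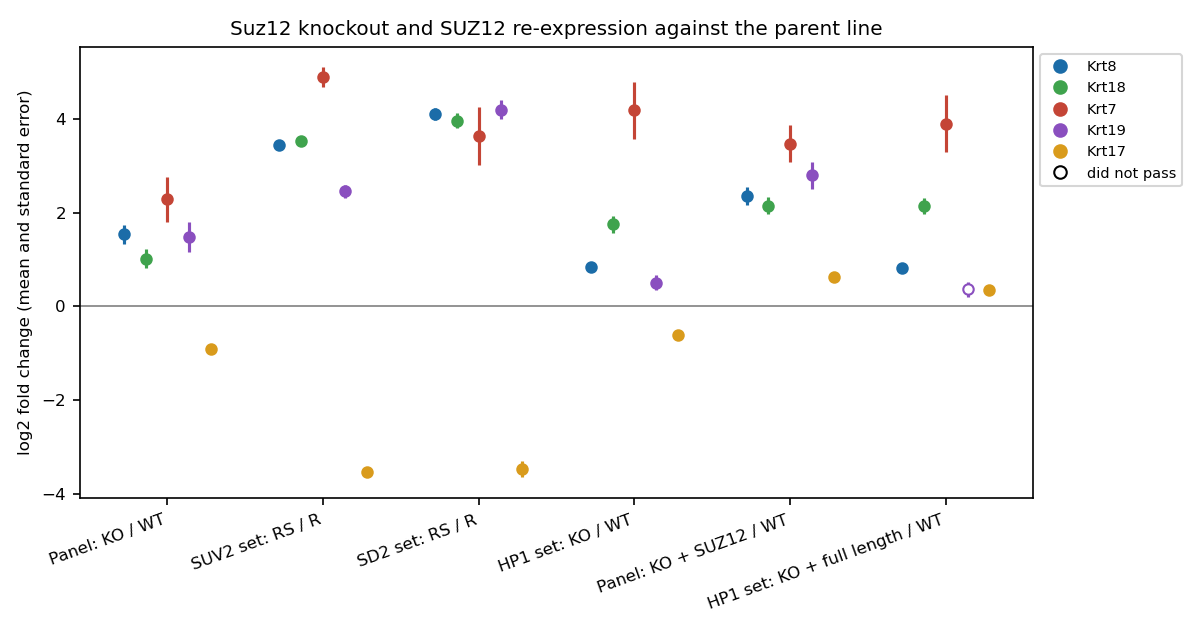
Log2 fold change (y axis, points with standard errors, n = 3 per group) of the 5 keratins for each Suz12 knockout against its parent line and for SUZ12 re-expression against wild type. Krt17 lies below 0 in the 4 knockout comparisons and above it in both lines with SUZ12, while the other 4 genes lie above 0 in all 6 comparisons; the open point did not pass the test.

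Krt8, the type II partner of the simple epithelial pair, had 11.7, 9.66 and 9.37 CPM in the panel's WT and 40.4, 28.4 and 20.7 in its knockout. In the RBBP5 set with SUV2 it had 5.19, 6.45 and 5.30 CPM in R and 56.7, 62.6 and 65.1 in RS. The set with SD2 gave 6.80, 7.71 and 6.21 CPM in R and 119, 121 and 116 in RS. All knockout libraries were the high ones, and the panel's knockout was the most spread. The HP1 set had 32.8, 35.5 and 36.4 CPM in Wild type and 64.5, 58.2 and 64.1 in the knockout. The log2 fold changes, each with its standard error and n = 3 per group, were 1.54 ± 0.20 in the panel, 3.44 ± 0.07 with SUV2, 4.10 ± 0.13 with SD2 and 0.83 ± 0.10 in the HP1 set. The weakest had an adjusted p of 6.04e-07 by edgeR's quasi-likelihood test with Benjamini-Hochberg adjustment, which was used throughout. Parent levels were lower in both R lines than in the other parents. Each dataset was fitted alone, and not all were processed with the same tools, so folds were not tested against each other across datasets.

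Krt18, the type I partner, had 12.9, 8.67 and 11.8 CPM in the panel's WT and 29.9, 20.8 and 16.5 in its knockout, a log2 change of 1.02 ± 0.20 (edgeR adjusted p = 0.000166). R of the set with SUV2 had 5.04, 5.68 and 6.33 CPM and RS 61.4, 67.4 and 67.2. R of the set with SD2 had 2.81, 3.10 and 2.84 CPM and RS 46.3, 47.9 and 42.3. The knockout libraries again stood above all parent libraries, by 3.53 ± 0.07 and 3.96 ± 0.16 in log2. In the HP1 set it went from 5.70, 5.73 and 7.0 CPM to 22.7, 19.9 and 18.3, a log2 change of 1.75 ± 0.18 (edgeR adjusted p = 5.10e-11).

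Krt7, a type II keratin of ductal epithelia, was near the limit of detection in every E14 parent. It had 11 counts in the 3 WT libraries of the panel against 61 in the knockout, or 0.396 ± 0.152 and 1.93 ± 0.607 CPM (mean ± SD). R had 20 counts against 645 in RS in the set with SUV2, and 8 against 110 in the set with SD2. Wild type had 5 counts, with none in replicate 3, against 93 in the knockout of the HP1 set. The log2 changes carried wide 95% counting intervals, 1.35 to 3.36 around 2.28 in the panel, 4.25 to 5.61 around 4.88 with SUV2, 2.62 to 4.90 around 3.63 with SD2 and 3.08 to 6.01 around 4.18 in the HP1 set, and all 4 excluded 0. Such intervals cover counting error only. The TCF cells of the degron set differed, with 15.9 ± 1.27 CPM of Krt7 in DMSO.

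Krt19, a type I keratin able to pair with Krt8, had 4.53, 3.69 and 3.63 CPM in the panel's WT and 16.0, 8.54 and 8.42 in its knockout, a log2 change of 1.48 ± 0.32 (edgeR adjusted p = 0.00045). R and RS averaged 1.77 ± 0.418 and 9.68 ± 1.21 CPM in the set with SUV2, and 0.587 ± 0.229 and 10.8 ± 0.573 in the set with SD2. Both rises were clear of the spread, at 2.45 ± 0.14 and at 4.19 with a counting interval of 3.66 to 4.81. The HP1 set gave the smallest one, from 9.82, 10.3 and 8.59 CPM to 12.7, 12.7 and 16.7, or 0.51 ± 0.17 (edgeR adjusted p = 0.0119). Without replicate 3 of that knockout it was 0.39 and missed the threshold (adjusted p = 0.0749).

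Krt17 went the other way. It was the most abundant of the 5 in every E14 parent, and per kb of transcript it stood at 67.8 ± 3.98 CPM in the panel's WT, against 7.75 ± 1.54 for Krt18 and 5.23 ± 0.649 for Krt8. Its libraries read 106, 98.7 and 111 CPM in WT and 55.2, 55.7 and 57.5 in the knockout. R and RS had 114, 115 and 117 against 9.65, 9.98 and 10.4 CPM with SUV2, and 45.6, 49.3 and 49.9 against 4.21, 4.08 and 4.77 with SD2. In the HP1 set Wild type had 85.1, 85.7 and 90.3 CPM and the knockout 56.4, 57.5 and 58.2. Every parent library was higher than every knockout library. Krt17 fell by 0.90 on the log2 scale in the panel (SE 0.09), by 3.53 (SE 0.05) and 3.47 (SE 0.17) in the sets with SUV2 and SD2 and by 0.60 (SE 0.07) in the HP1 set, with an edgeR adjusted p of at most 1.92e-08. Per kb, Krt17 was above Krt8 in both R lines, at 74.4 ± 0.953 against 2.88 ± 0.358 CPM with SUV2 and 31.1 ± 1.52 against 3.53 ± 0.385 with SD2. In RS it was below, at 6.46 ± 0.252 against 31.4 ± 2.2 and 2.81 ± 0.239 against 60.6 ± 1.27.

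Genes next to the keratins did not all follow them. Within 100 kb of Krt17, Krt42, another type I keratin gene, fell in all 4 knockout comparisons, by 1.35 (SE 0.07) in the panel, 3.09 (SE 0.06) with SUV2, 2.49 (SE 0.26) with SD2 and 0.49 (SE 0.09) in the HP1 set. Krt42 and Krt17 are related in sequence, and reads shared between them were not tested. Eif1, a translation factor gene in the same window, passed only in the HP1 set, at -0.16 ± 0.05. Beside Krt8 and Krt18, Eif4b, another translation factor gene, fell by 0.13, 0.69, 0.58 and 0.11 in the same order, opposite to the keratins. Tns2, in the same window, rose in the sets with SUV2 and SD2 and in the HP1 set, by 0.58 (SE 0.09), 0.52 (SE 0.11) and 0.54 (SE 0.19), and did not pass in the panel (-0.37 ± 0.22). Krt79, also there, rose in the panel (4.33 ± 0.83) and in the set with SD2 (3.12 ± 0.73). Spryd3 fell in the panel and in the HP1 set, by 0.35 and 0.48, and did not pass in the other sets. Krt13, a type I keratin next to Krt19, was higher in the panel's knockout (1.28 ± 0.34) and in that of the set with SUV2 (0.80 ± 0.26), did not pass with SD2 (0.49 ± 0.40) and was lower in that of the HP1 set (-0.88 ± 0.24). The pseudogene Krt8-ps, listed in the panel and the set with SUV2, averaged at most 0.376 CPM in any group.

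Other genes of epithelial cells and filaments were read from 5 lists. Of 18 other keratins, 7 could be tested in the panel and 3 were higher and 1 lower in the knockout, with a median log2 change of 0.60 against -0.02 over all genes. The summed level of the 18 was lower all the same, at 34.6 to 38.4 CPM in the knockout against 74.2 to 77.7 in WT. Krt79 was among those that rose, and Krt42 fell. Of 17 measured genes for desmosomes and keratin linkers, 9 were higher and 2 lower, among them the desmosomal plaque gene Dsp (1.32 ± 0.13), Perp (0.80 ± 0.09) and Pkp2 (0.81 ± 0.13). Of 19 junction and adhesion genes, 8 were higher and 0 lower, with P-cadherin Cdh3 (0.67 ± 0.09), the tight junction gene Ocln (1.23 ± 0.16) and Epcam (0.37 ± 0.05) named first by their p. Of 15 other intermediate filament genes, 6 were higher and 4 lower, and the neuronal filament genes Ina (-2.43 ± 0.12) and Nefl (-1.16 ± 0.13) were among those that fell. Of 23 epithelial and AP-1 or ETS regulators, 10 were higher and 4 lower, with Fosl2 (2.42 ± 0.24), Tfap2a (2.02 ± 0.22) and Elf3 (1.02 ± 0.11) higher. Over all genes, 23.8% were called higher and 23.2% lower in that comparison.

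In the HP1 set's knockout the same lists gave 14 higher and 1 lower of 19 junction genes, with a median of 0.59, and 5 higher and 3 lower of 16 desmosome and linker genes, with a median of 0.07. Of the other keratins 0 were higher and 2 lower of 3 measured, with a median of -0.49. Their summed level was lower in the knockout, as in the panel, at 57.3 to 60.9 CPM against 76.7 to 82.5 in Wild type. Of 15 other intermediate filament genes 5 were higher and 4 lower, and of 21 regulators 10 were higher and 4 lower. Cdh3 (1.54 ± 0.11), Dsg2 (1.15 ± 0.08), Dsp (1.06 ± 0.09) and Elf3 (1.53 ± 0.10) were higher and Ina (-2.21 ± 0.10) lower. Over all genes, 22.2% were higher and 19.6% lower there. Among the other intermediate filaments, Vim, which encodes vimentin, fell (-0.75 ± 0.07).

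Primitive endoderm markers rose in all 4 knockout comparisons, and the other cell type lists are given in less detail. Of 16 measured primitive endoderm markers, 15, 16, 16 and 15 were higher in the panel, the sets with SUV2 and SD2 and the HP1 set. Of all genes, 23.8%, 36.9%, 31.8% and 22.2% were higher in the same order. The summed level of these markers rose from between 394 and 464 CPM in the panel's WT libraries to between 1550 and 2740 in the knockout, and from between 413 and 433 to between 7520 and 7860 in the set with SD2, the set with the highest Krt8. The endoderm product genes Afp and Ttr were at 0 in all libraries of WT and R. Of 9 measured trophoblast markers, 5 were higher and 1 lower in the panel, but their summed level was 86.6 to 107 CPM in WT and 71.8 to 84.7 in the knockout, with Prl3d1 at 0. In the set with SUV2, 9 of 11 trophoblast markers were higher and 1 lower, with a median log2 change of 3.16. The set with SD2 had 7 of 9 higher and 1 lower (median 2.29), and the HP1 set 5 of 9 higher and 2 lower (median 2.17). For fibroblast markers 6 of 6 measured were higher in the panel, at a summed level of 43 to 52.6 CPM against 9.66 to 14.5 in WT. In the sets with SUV2 and SD2 and the HP1 set, 6 of 6, 6 of 6 and 4 of 5 fibroblast markers were higher. Of 7 surface ectoderm and amnion markers 4 were higher and 1 lower, and of 7 mesothelium and gut markers 4 were higher and 0 lower, with Fabp2 at 0. Of 12 pluripotency genes, 5 were higher and 6 lower. Over all genes of the panel, 23.8% were higher and 23.2% lower. Of 6 mesothelium and gut markers measured in each RBBP5 set, 3 were higher in both, with 0 lower with SUV2 and 1 with SD2. In the HP1 set 1 of 7 was higher and 0 lower. The part of these cell types in the keratin changes was not tested.

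**Figure D2:**
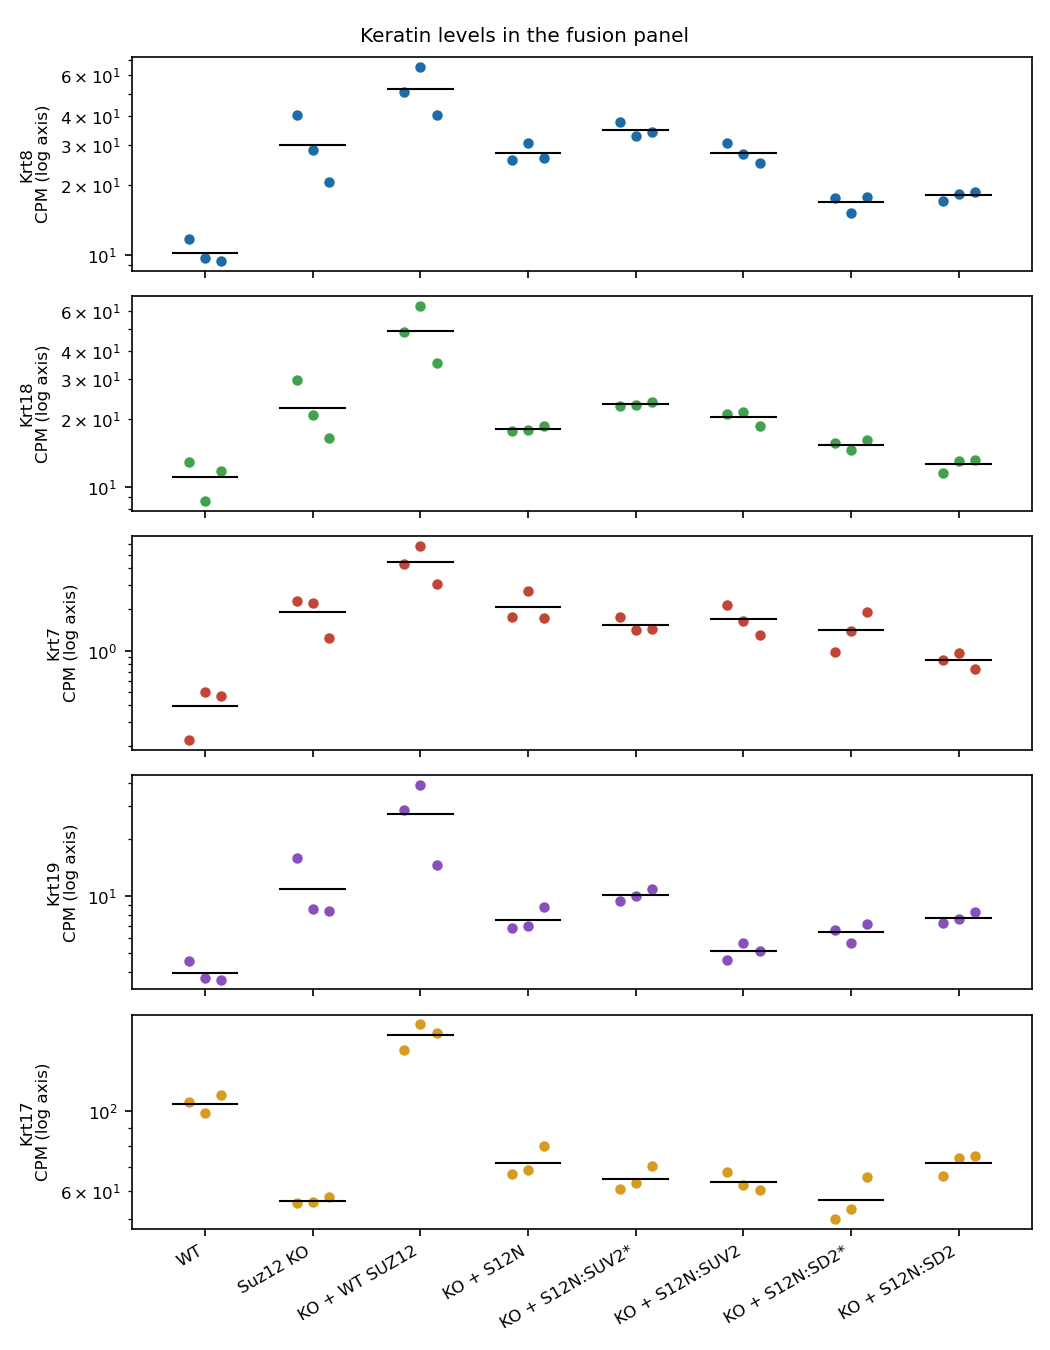
CPM of each keratin (y axes, log scale) in the 8 groups of the fusion panel, 1 point per library and a line at the group mean (n = 3). The line with WT SUZ12 holds the highest mean for all 5 genes, and WT the lowest for Krt8, Krt18, Krt7 and Krt19.

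Re-expressed SUZ12 came with higher Krt17 in both datasets that held it, while the other 4 genes did not pass as lower than in the knockout in either. In the panel, the knockout with WT SUZ12 had 50.9, 65.3 and 40.3 CPM of Krt8, 48.4, 63.3 and 35.6 of Krt18 and 28.6, 38.8 and 14.7 of Krt19. For Krt8 and Krt19 its lowest library was below the highest of the knockout, and for Krt18 it was not. Krt7 had 4.33, 5.86 and 3.08 CPM there. All 5 genes were higher than in the knockout (48.7% of all genes were called), and Krt8, Krt18, Krt7 and Krt19 moved further from WT, not back. Against WT, where 10.4% of all genes were called, all 5 passed as higher. The log2 differences were 2.35 ± 0.19 for Krt8, 2.15 ± 0.18 for Krt18, 2.79 ± 0.29 for Krt19 and 3.47 for Krt7 (counting interval 2.62 to 4.50), with an edgeR adjusted p of at most 1.21e-06. Krt17 alone returned and overshot, at 148, 175 and 166 CPM, which is 1.54 ± 0.09 above the knockout and 0.63 ± 0.09 above WT (edgeR adjusted p = 2.34e-05).

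The comparisons with WT and with the knockout share libraries, and their values are set side by side here as 2 descriptions. Both also cross the panel's split in column names and library totals, whose part was not tested. Beside the keratins, 15 of 19 junction genes were higher and 1 lower than in WT (median 0.69), with Cldn6 (1.35 ± 0.12), Cldn7 (1.91 ± 0.18) and Epcam (0.56 ± 0.05) among them. Of 17 desmosome and linker genes 7 were higher and 0 lower, with Perp (0.77 ± 0.09), Dsp (1.09 ± 0.13) and Ppl (1.44 ± 0.19). Over all genes, 5.67% were higher and 4.73% lower. The primitive endoderm markers stood at 496 to 606 CPM in sum, with Afp at 0, close to the 394 to 464 of WT, and 4 of 16 were higher and 1 lower. Surface ectoderm and amnion markers, a list that holds 3 other keratins, stood at 88.6 to 118 CPM against 59.9 to 66.5 in WT, with 2 of 7 higher and 0 lower. Trophoblast markers stood at 102 to 117 CPM against 86.6 to 107, with 2 of 9 higher and 0 lower, and no fibroblast marker passed. Their part in the result was not tested.

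In the HP1 set, Suz12 Full length left Krt8 at 55.7, 65.6 and 61.4 CPM, overlapping the knockout (-0.03 ± 0.09), and Krt7 at 2.73, 2.36 and 2.2 (-0.29 ± 0.40). Krt18 had 23.5, 30.2 and 26.2 CPM, a difference of 0.38 ± 0.15 from the knockout that did not pass (edgeR adjusted p = 0.05, above the threshold before rounding). Krt19 had 11.4, 13.7 and 12.6 CPM (-0.14 ± 0.16). Krt17 was the only member that passed, where 26.4% of all genes did. It rose from the knockout's level to 111, 107 and 116 CPM, or 0.95 ± 0.07 (edgeR adjusted p = 1.16e-14). Against Wild type, where 19.1% of all genes were called, Krt8 (0.81 ± 0.10), Krt18 (2.14 ± 0.17), Krt7 (3.89, counting interval 2.78 to 5.70) and Krt17 (0.36 ± 0.07) were higher and Krt19 did not pass (0.37 ± 0.16, edgeR adjusted p = 0.11). In both datasets Krt17 with SUZ12 re-expressed was above wild type, and so were Krt8, Krt18 and Krt7. Suz12 RNA averaged 269 ± 35.7 CPM in the panel's line with WT SUZ12, against 294 ± 24.3 in WT. The HP1 set's line with Suz12 Full length had less Suz12 RNA than its Wild type, at 169 ± 4.32 against 296 ± 12.7 CPM. Primitive endoderm markers summed to 1110 to 1160 CPM in the line with Suz12 Full length, between 584 to 611 in Wild type and 1830 to 1850 in the knockout. Surface ectoderm and amnion markers summed to 52.5 to 53.8, between 39.3 to 41.7 and 62.3 to 72.8.

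With S12N alone, 1 keratin differed from the knockout in the panel and none in the HP1 set. In the panel, where 3.81% of all genes were called, Krt17 passed at 66.9, 68.6 and 79.9 CPM, 0.35 ± 0.09 above the knockout (edgeR adjusted p = 0.0311). That call did not hold without any 1 of the 3 knockout libraries or without replicate 3 of S12N (adjusted p from 0.072 to 0.143). Krt8 differed by -0.12 ± 0.17, Krt18 by -0.31 ± 0.17, Krt7 by 0.10 ± 0.31 and Krt19 by -0.54 ± 0.26, and none passed. In the HP1 set none of the 5 passed, where 1.89% of all genes did, by edgeR at adjusted p, with 0 at an unadjusted p under 0.05 and 0 by DESeq2. S12N fused to the HP1a chromodomain differed from S12N in 1 member, beside 6.97% of all genes. Krt18 had 26.7, 33.5 and 19.2 CPM with the fusion and 20.3, 17.6 and 15.8 with S12N, overlapping ranges with a log2 difference of 0.55 ± 0.15 (edgeR adjusted p = 0.0116). Its call was lost without replicate 1 or 2 of the fusion or replicate 3 of S12N (adjusted p of 0.056, 0.249 and 0.0884).

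The panel's fusion lines were compared with those of the dead versions, which also differed in Suz12 RNA. It averaged 181 ± 15.1 CPM with S12N:SUV2 and 237 ± 28.0 with its dead version. With S12N:SD2 it averaged 114 ± 10.5 CPM, and 222 ± 29.9 with the dead one. Catalytic state, Suz12 level and line cannot be told apart here. The S12N:SUV2 line had 4.61, 5.69 and 5.14 CPM of Krt19 and the dead one 9.51, 10.1 and 10.9. These did not overlap, and Krt19 fell by 0.98 on the log2 scale (SE 0.24, edgeR adjusted p = 0.00449). It was the only member to pass, beside 22.6% of all genes. Krt8 (-0.34 ± 0.15), Krt18 (-0.19 ± 0.16), Krt7 (0.16 ± 0.27) and Krt17 (-0.03 ± 0.09) did not. For SD2 the member that passed was Krt17, beside 18% of all genes, at 65.9, 73.9 and 74.8 CPM with S12N:SD2 and 49.9, 53.4 and 65.5 with the dead version (0.34 ± 0.09, edgeR adjusted p = 0.00883). The groups only just avoided overlap, and the call was lost without replicate 1 or 2 of the dead version (adjusted p of 0.0673 and 0.0516). Krt7 was lower, at 58 against 93 counts in the group (-0.77 ± 0.32), without passing.

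The dead fusions were also set beside S12N. Krt8 had 17.7, 15.2 and 17.9 CPM with S12N:SD2* and 25.7, 30.6 and 26.2 with S12N, a fall of 0.70 (SE 0.16, edgeR adjusted p = 0.00566). Krt17 fell by 0.35 (SE 0.09, edgeR adjusted p = 0.0106), a call lost without replicate 3 of S12N or replicate 1 of S12N:SD2* (adjusted p of 0.0749 and 0.08). These were 2 of 5 members beside 13.1% of all genes. With S12N:SUV2* none passed by edgeR, beside 21% of all genes, although Krt8 and Krt18 reached unadjusted p of 0.0368 and 0.0346; DESeq2 called 0. In a fit of the compared groups alone 3 passed. The order of Krt8 in the panel ran from 10.2 CPM in WT through 16.9 in S12N:SD2*, 18.1 in S12N:SD2, 27.5 in S12N, 27.6 in S12N:SUV2, 29.9 in the knockout and 34.8 in S12N:SUV2* to 52.1 with WT SUZ12. Libraries overlapped between 4 of the 7 neighbouring pairs of that order.

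**Figure D3:**
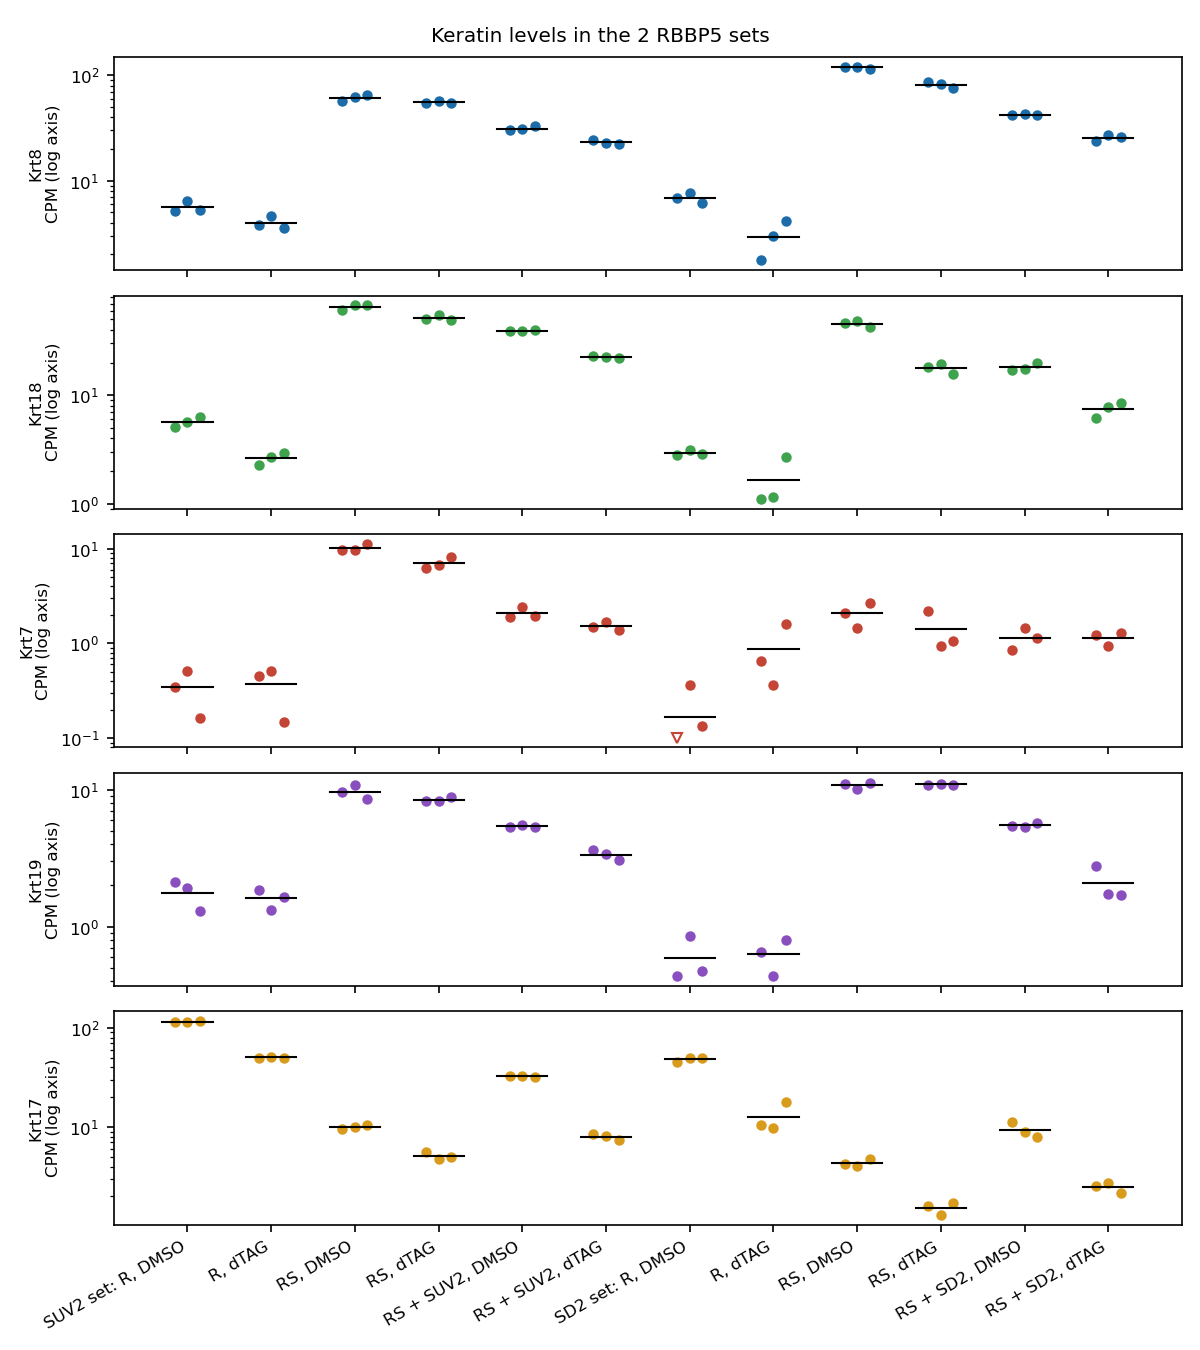
CPM of each keratin (y axes, log scale) in the 6 groups of each RBBP5 set, 1 point per library and a line at the group mean (n = 3); an open triangle marks a library with 0 counts. Krt8, Krt18 and Krt19 are highest in RS and intermediate in RS with a fusion, while Krt17 is highest in R with DMSO.

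In the RBBP5 sets, most keratins in the line of RS with a fusion differed from RS and stood between RS and R. Neither set held S12N alone or a dead fusion, so a part of the fusion cannot be told from that of the line. With S12N:SUV2 in DMSO, Krt8 had 30.2, 30.7 and 32.9 CPM, Krt18 39.1, 38.9 and 39.5, Krt7 1.88, 2.41 and 1.96, and Krt19 5.31, 5.56 and 5.39. All 4 stood below every RS library and above every R library. They fell by 0.97 (SE 0.05), 0.74 (SE 0.05), 2.29 (SE 0.14) and 0.84 (SE 0.11) on the log2 scale. Krt17 rose to 32.5, 33.0 and 32.0 CPM, or 1.70 ± 0.06, which is still under the 115 ± 1.48 of R. All 5 passed, beside 48.7% of all genes, with an edgeR adjusted p of at most 7.52e-08.

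With S12N:SD2 the pattern was alike for 4 of the 5. Krt8 had 42, 42.8 and 42.2 CPM against 119 ± 2.48 in RS, a fall of 1.49 (SE 0.11), and Krt18 fell by 1.33 (SE 0.13) and Krt19 by 0.98 (SE 0.13). Krt17 had 11.3, 9.01 and 7.89 CPM against 4.35 ± 0.37, a rise of 1.11 ± 0.19 (edgeR adjusted p = 0.000243). Krt7, at 59 against 110 counts, differed by -0.86 ± 0.40 and did not pass (edgeR adjusted p = 0.128). Over all genes 28% were called. Primitive endoderm markers fell alongside, from 7520 to 7860 CPM in RS to 1350 to 1380 with the fusion, and from 2370 to 2560 to between 791 and 856 in the set with SUV2, and their part in the keratin changes was not tested. Fibroblast markers went from 35.8 to 43.7 CPM in RS to 23 to 25.5 with S12N:SUV2, and from 37.4 to 41.5 to 48.5 to 56.1 with S12N:SD2. The labels do not say that the cultures of the set with SD2 were separate, and p-values there cover no more than the spread between these samples. In the panel, libraries of S12N:SUV2 overlapped those of the knockout for Krt8, Krt18 and Krt7. They were all lower for Krt19 and all higher for Krt17. Libraries of S12N:SD2 lay on the WT side of the knockout for every keratin. Those of the dead S12N:SD2* did so for Krt8, Krt18 and Krt19, and those of S12N and S12N:SUV2* for Krt17. The share of all genes without overlap was not computed. The panel's fusions were not tested against the knockout, and all these pairs cross its split in library totals.

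**Figure D4:**
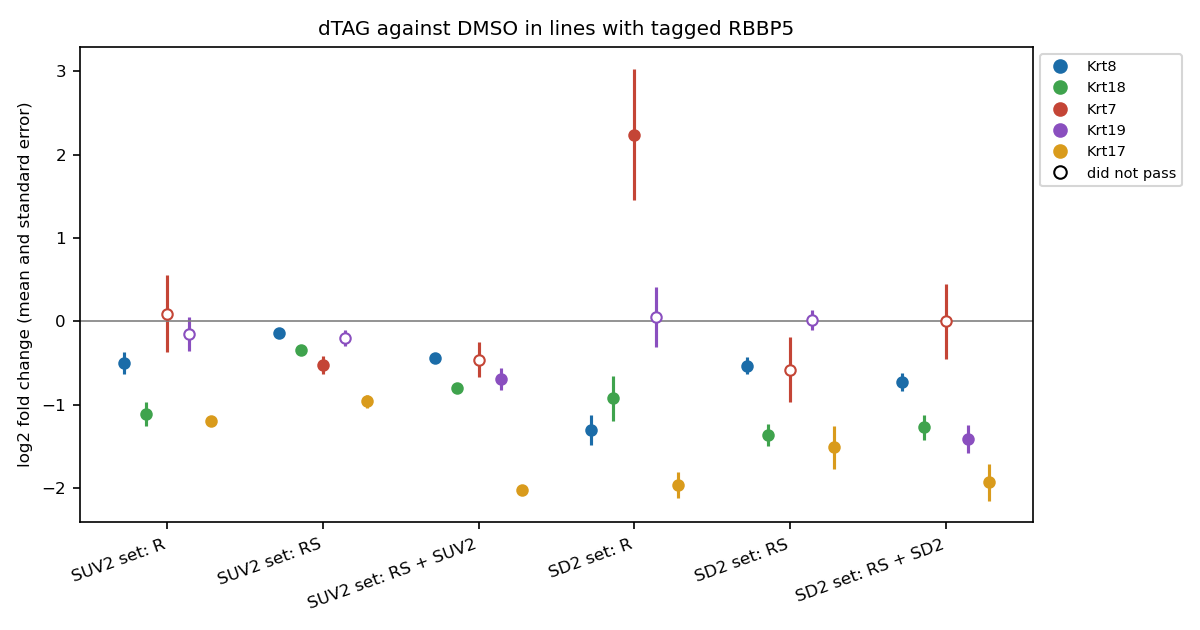
Log2 fold change of dTAG against DMSO (y axis, points with standard errors, n = 3 per group) for the 5 keratins in the 6 comparisons of the RBBP5 sets, where RS is one line measured in both; open points did not pass. Krt8, Krt18 and Krt17 lie below 0 in all 6, with Krt17 between -0.96 and -2.02.

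With dTAG13, Krt17, Krt18 and Krt8 fell in all 6 comparisons, 3 in each set, with RS as one line measured in both. Krt17 went from 114, 115 and 117 CPM to 49.8, 51.1 and 50.1 in R of the set with SUV2, a fall of 1.20 (SE 0.03, edgeR adjusted p = 1.54e-22). In RS it fell by 0.96 (SE 0.08) and in RS with S12N:SUV2 by 2.02 (SE 0.06), from 32.5, 33.0 and 32.0 CPM to 8.44, 8.20 and 7.42. Treated libraries were below all DMSO libraries in each line. The set with SD2 gave falls of 1.96 (SE 0.16) in R, 1.51 (SE 0.26) in RS and 1.93 (SE 0.22) in RS with S12N:SD2.

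Krt18 fell by 1.11 (SE 0.14), 0.34 (SE 0.04) and 0.80 (SE 0.06) in R, RS and RS with S12N:SUV2, and by 0.92 (SE 0.27), 1.36 (SE 0.13) and 1.27 (SE 0.15) in the matching lines of the set with SD2. Krt8 fell by 0.50 (SE 0.13), 0.14 (SE 0.05) and 0.44 (SE 0.06), and by 1.30 (SE 0.18), 0.53 (SE 0.10) and 0.73 (SE 0.11). The fall of Krt8 in RS of the set with SUV2, from 56.7, 62.6 and 65.1 CPM to 55.3, 57.7 and 54.8, was the smallest, its libraries overlapped, and its call was lost without any 1 of 4 libraries (adjusted p from 0.0551 to 0.129). Krt19 passed in the lines with a fusion, where it fell by 0.69 (SE 0.13) with S12N:SUV2 and 1.41 (SE 0.17) with S12N:SD2, and did not pass in R or RS of either set. Krt7 fell in RS of the set with SUV2 (-0.52 ± 0.11, edgeR adjusted p = 0.000236) and was higher in R of the set with SD2, at 31 against 8 counts (2.24, counting interval 1.24 to 3.72, edgeR adjusted p = 0.0314). The share of all genes called was 51.6%, 48.3% and 52.8% in R, RS and the fusion line of the set with SUV2, where 3, 4 and 4 keratins passed, and 41.8%, 38.2% and 41.5% in the set with SD2, where 4, 3 and 4 passed.

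Replicate 3 of R with dTAG in the set with SD2, which stood apart, read 17.8 CPM of Krt17 against 10.6 and 9.80, and 1.61 CPM of Krt7 against 0.650 and 0.360. In R of that set, the fall of Krt18 was lost without replicate 1 or 2 of dTAG (adjusted p of 0.0677 and 0.0558). The Krt7 libraries overlapped, and its call was lost without replicate 1 or 3 of DMSO (adjusted p of 0.112 and 0.0809). Without replicate 3 of dTAG the falls in R were 2.24 for Krt17, 1.58 for Krt8 and 1.37 for Krt18, each larger than with it. Krt7 was then 1.60 ± 0.77 higher and missed the threshold (edgeR adjusted p = 0.084).

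The size of the dTAG response differed between lines for some members, by a test of the interaction. In the set with SUV2, the fall was deeper with S12N:SUV2 than in RS for Krt17 (-1.06 ± 0.11, edgeR adjusted p = 4.05e-08), Krt18 (-0.46 ± 0.07), Krt8 (-0.31 ± 0.08) and, at the edge of the threshold, Krt19 (-0.49 ± 0.16, edgeR adjusted p = 0.0499). These were 4 of 5 members beside 10.7% of all genes. The Krt19 call was lost without any 1 of 11 of the 12 libraries (adjusted p from 0.0542 to 0.139), with RLE scaling (0.051), with no filter (0.0854) and with DESeq2 (0.167). Krt18 fell less in RS than in R (0.77 ± 0.15, edgeR adjusted p = 0.000261), the 1 member beside 19.6% of genes. In the set with SD2, the response of Krt19 with S12N:SD2 differed from that in RS (-1.43 ± 0.21, edgeR adjusted p = 0.0015), beside 2.06% of genes. Krt19 did not fall in RS there (0.02 ± 0.12). Between RS and R of that set Krt8 (0.77 ± 0.21, edgeR adjusted p = 0.0241) and Krt7 (-2.82 ± 0.88, edgeR adjusted p = 0.0462) differed, beside 12.1% of genes. The Krt8 call was lost without replicate 2 of R in DMSO or replicate 1 of R with dTAG (adjusted p of 0.0702 and 0.0725), and that of Krt7 without any 1 of 7 of the 12 libraries (adjusted p from 0.0549 to 0.123) or with the replicate block (adjusted p = 0.0536). Without the library that stood apart these were 1.04 ± 0.20 (adjusted p = 0.000155) for Krt8 and -2.18 ± 0.83 (adjusted p = 0.0549) for Krt7, and Krt17 then passed at 0.73 ± 0.23 (adjusted p = 0.0217). The lines compared in each set share DMSO and dTAG libraries between these tests.

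**Figure D5:**
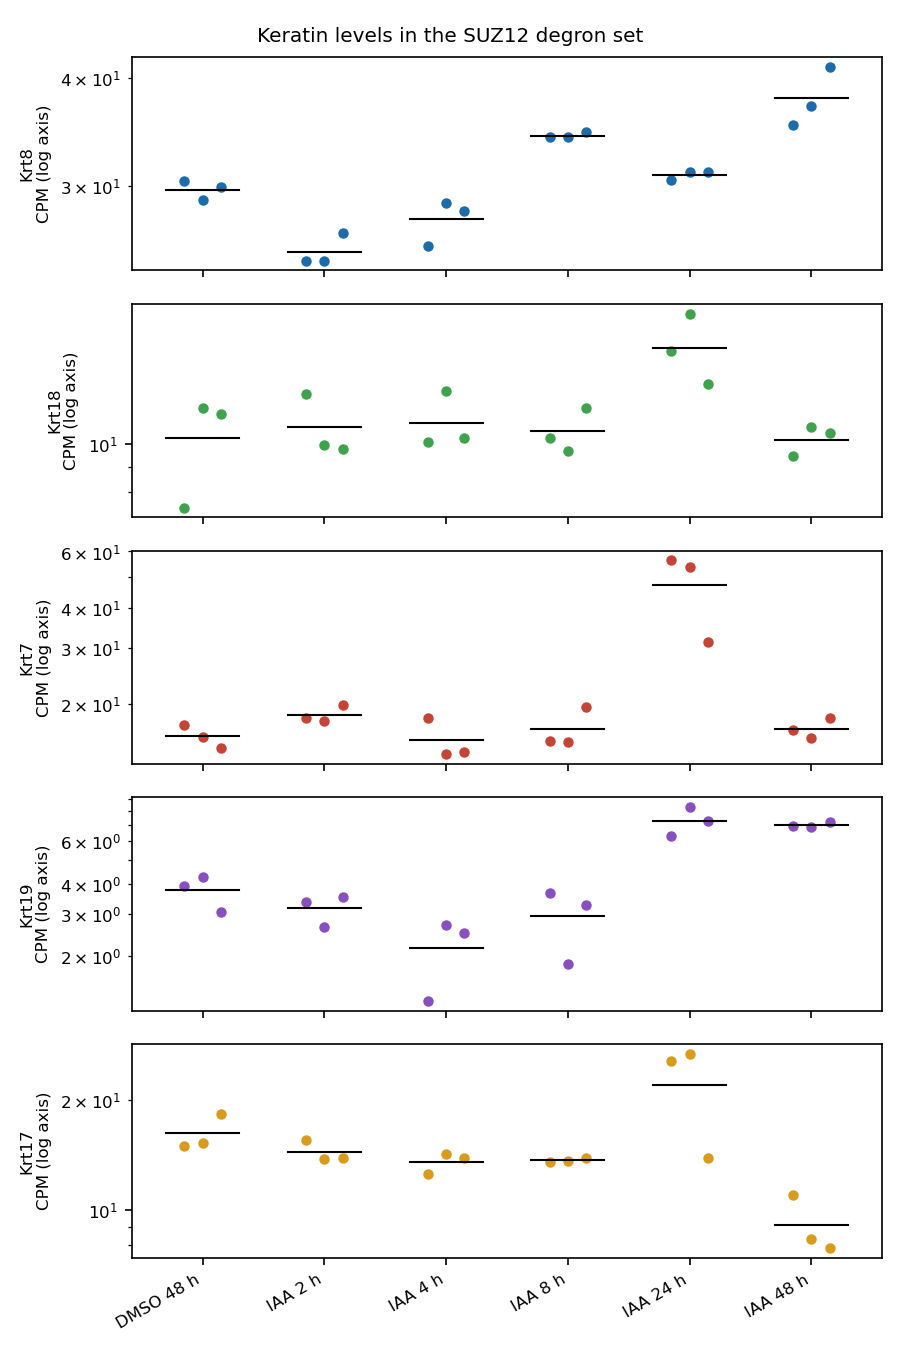
CPM of each keratin (y axes, log scale) in DMSO and after 2 to 48 h of IAA in the SUZ12 degron cells, 1 point per library and a line at the group mean (n = 3). No gene passed up to 8 h, and the 24 h points of Krt7 and Krt17 are spread, with replicate 3 lowest.

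With IAA in the degron cells, keratins passed at 24 and 48 h and at no earlier time. After 2, 4 and 8 h of IAA none of the 5 passed by edgeR or DESeq2, where edgeR called 0%, 0.00713% and 0.0357% of all genes. The unadjusted p was under 0.05 for Krt8 at 2 h (-0.24 ± 0.09) and 8 h (0.21 ± 0.09) and for Krt19 at 4 h (-0.79 ± 0.27). At 24 h Krt7 had 56.3, 53.6 and 31.2 CPM against 17.2, 15.8 and 14.6 in DMSO, all above the controls, a log2 change of 1.56 ± 0.19 (edgeR adjusted p = 6.48e-05). Krt19 had 6.28, 8.31 and 7.27 CPM against 3.92, 4.28 and 3.05 (0.95 ± 0.26), and Krt18 15.4, 18.3 and 13.2 against 7.45, 11.8 and 11.5 (0.59 ± 0.18). These 3 passed, beside 34.3% of all genes, and Krt8 (0.06 ± 0.09) and Krt17 (0.43 ± 0.19) did not. The Krt18 call was lost without replicate 1 of DMSO or replicate 1 or 2 at 24 h (adjusted p of 0.108, 0.0508 and 0.0776).

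Without replicate 3 at 24 h, which stood apart, Krt7 was 1.79 ± 0.13 higher, Krt19 0.94 ± 0.28 and Krt18 0.69 ± 0.19, and Krt17 passed as higher too (0.68 ± 0.13, edgeR adjusted p = 0.000149), beside 59.5% of all genes. That fit keeps replicates 1 and 2, at 105 and 93.2 CPM of Suz12. Replicate 3 had 210, and libraries of the other degron groups 154 to 219. Rbbp5 was at 68.7 and 59.5 CPM, against 96.9 in replicate 3 and 80.5 to 109 in the other groups. For Pou5f1 all 3 lay outside the other groups' 1070 to 1470 CPM, at 1780, 2170 and 820. Which of these libraries are atypical was not tested. In a fit of the 24 h and DMSO libraries alone none passed, with Krt7 nearest (1.66 ± 0.26, adjusted p = 0.0514). The summed pluripotency markers ranged from 8600 to 19700 CPM over these 3 libraries, against 8470 to 10300 in DMSO. Primitive endoderm markers summed to 456 to 513 CPM against 592 to 619 (8 of 14 higher, 1 lower) and fibroblast markers to 7.17 to 12.9 against 3.86 to 5 (2 of 5 higher). Their part in the result was not tested.

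At 48 h Krt7 stood at 16.6, 15.6 and 18.0 CPM (0.08 ± 0.19) and Krt18 at 9.46, 10.8 and 10.5 (-0.01 ± 0.19). Krt19 stood at 6.92, 6.84 and 7.22 CPM (0.90 ± 0.25, edgeR adjusted p = 0.00862) and Krt8 at 35.3, 37.1 and 41.2 against 30.4, 28.9 and 29.9 (0.35 ± 0.09, edgeR adjusted p = 0.00546). Krt17 fell by 0.83 (SE 0.20, edgeR adjusted p = 0.00311), to 11, 8.34 and 7.87 CPM from 15, 15.2 and 18.3. None of these 3 overlapped DMSO, a share not computed over all genes, and 44% of all genes were called. The directions for Krt8, Krt19 and Krt17 were those of the knockout comparisons. The DMSO control was taken at 48 h and serves all 5 times. Primitive endoderm markers summed to 452 to 479 CPM at 48 h and 592 to 619 in DMSO, so their summed level was lower there, although 9 of 14 passed as higher and 1 as lower. Fibroblast markers stood at 18 to 20.1 CPM against 3.86 to 5 in DMSO, with 4 of 5 higher. Mesothelium and gut markers stood at 41.8 to 45 CPM against 9.39 to 10.8, with 1 of 4 measured higher and 2 lower. The part of these cell types in the keratin changes at 48 h was not tested.

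Krt8 and Krt18 moved in parallel in the E14 lines. Across the group means of log2 CPM, taken around each dataset's own mean, their Pearson correlation was 0.96 over all 31 groups. It was 0.93 over the 8 of the panel, 0.99 and 0.98 over the 6 of each RBBP5 set and 0.93 over the 5 of the HP1 set. In the degron set it was -0.07 over 6 groups, where both genes moved little. Krt19 correlated with Krt8 at 0.91 and Krt7 at 0.74 over all groups, and Krt17 at -0.66. These are descriptions over groups that share lines and controls, in datasets normalized separately. The values over all groups leave out differences in level between datasets. Per kb of transcript, the ratio of Krt8 to Krt18 was 0.681 in the panel's WT and 0.973 in its knockout, and 4.19 in Wild type and 2.26 in the knockout of the HP1 set. Within the set with SD2 it was 1.92 in DMSO and 3.41 with dTAG in RS, and 1.72 and 2.53 in RS with S12N:SD2.

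Among 9615 genes whose mean log2 CPM reached 1 in every dataset, the 5 whose group means were most like those of Krt8 over the 31 groups were Itga3, which encodes an integrin subunit for laminin (0.96), Phldb2 (0.93), Rab15 (0.93), Epb41l1 (0.93) and Pi4k2b (0.92). For Krt19 they were Phldb2 (0.91), Csrp1 (0.89), Clu (0.89), Slc25a24 (0.88) and the actin-severing protein gene Gsn (0.88). The measure is Pearson's r, and the groups share libraries' depth and parent lines.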

How the data were processed

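Per the labels, RNA came from cultured cells described as biological triplicates except in the RBBP5 set with SD2. The values used are the deposited raw counts of each gene. The submitters' processing notes give the steps before them: the panel and the RBBP5 set with SUV2 were made with Trim Galore 0.4.5, STAR 2.4 and HTSeq 0.9.1 on mm10, the set with SD2 with Trim Galore 0.6.7, HISAT2 2.2.1 and featureCounts 2.0.8, and the degron and HP1 sets with Trimmomatic and HISAT2, with no counting tool given in the sources used here. Whether counting used strand is not given in the sources used here. Columns of the panel were assigned by reading VEFS as S12N, SET as SD2, FullH2 as SUV2, E14JU as WT and JUS2_59 as the knockout, which is an inference from their wording. Tables of normalized counts were not used.

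Each dataset was fitted alone with edgeR 4.0.16 in R 4.3.3 (TMM scaling, filterByExpr, one mean per group, two-sided quasi-likelihood F test), and p-values were adjusted by Benjamini-Hochberg over 16230, 15757, 15211, 14016 and 14026 genes for the panel, the sets with SUV2 and SD2, the degron set and the HP1 set, with a threshold of 0.05. Each ± after a log2 value is the standard error and after a level the standard deviation, with n = 3. Levels per kb use RefSeq transcript lengths. Where a group held under 30 counts, a 95% exact counting interval stands in place of the error for members in direct comparisons of 2 groups. Interactions, fits with a library left out and genes other than the members carry the standard error only, also at low counts. No 2 libraries held the same counts, and the closest replicate pair still differed beyond sampling noise (chi-square per degree of freedom 1.24). Same-numbered libraries paired by the check on their deviations (all 3 correlations over 0.1) in 1 of 28 comparisons, the panel's knockout against WT, at 0.17, 0.12 and 0.122. The tests were tried on simulated data. Members and gene lists were chosen with earlier results of these data known. All 5 members are named. Other genes were named as up to 3 of each list with the smallest p among those past the threshold in a knockout or in the panel's line with WT SUZ12, and neighbours as genes within 100 kb; not all are printed. Alternatives were RLE scaling, DESeq2 1.42.0, no filter, a fit of the compared groups alone, the replicate number as a block, and each library left out in turn.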

Additional observations from a re-analysis of the deposited data

Results flagged for a closer look

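The response to dTAG differed between lines in 8 member values, each found by a test of the difference itself between the responses in 2 lines (edgeR's interaction contrast, n = 3 per group). In the RBBP5 set with SUV2, the log2 response of Krt18 was 0.77 higher in RS than in R. The response in RS with S12N:SUV2 minus that in RS was -0.31 for Krt8, -0.46 for Krt18, -0.49 for Krt19 and -1.06 for Krt17. In the set with SD2, the response in RS minus that in R was 0.77 for Krt8 and -2.82 for Krt7, the latter with a group of 8 counts. Without replicate 3 of R with dTAG, which stood apart, they were 1.04 (edgeR adjusted p = 0.000155) and -2.18 (edgeR adjusted p = 0.0549), and with the replicate block Krt7 missed the threshold too (adjusted p = 0.0536). The response of Krt19 with S12N:SD2 minus that in RS was -1.43.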

How the results depend on the processing

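Of 160 member values, 86 passed and 0 of those changed direction under any alternative; 72 passed under all of them, and 14 lost the threshold under at least 1 (8 of them in the fit of compared groups alone, and 1 with each of RLE scaling, DESeq2, no filter and the replicate block). Of 32 counts of members called, 21 stayed within 1.5 times. In the fit of compared groups alone the count went from 1 to 0 for S12N against the knockout in the panel, 1 to 3 for S12N:SUV2 against its dead version, 0 to 3 for S12N:SUV2* against S12N, 2 to 1 for S12N:SD2* against S12N, 4 to 2 for dTAG in R and 2 to 0 for its difference between RS and R in the set with SD2, 3 to 0 at 24 h of IAA, and 1 to 2 for Suz12 Full length against the knockout. Without the filter the first 3 became 2, 2 and 3, the difference of dTAG between RS and R in the set with SUV2 went from 1 to 2, and Suz12 Full length gave 2. With the replicate block, the difference between RS and R in the set with SD2 went from 2 to 1 and Suz12 Full length against the knockout from 1 to 2; no other count left the limit. Leaving out each library in turn gave 0 to 1 for S12N against the knockout and for S12N:SD2 against its dead version, 1 to 2 for S12N:SD2* against S12N, for both differences of dTAG between RS and R and for Suz12 Full length against the knockout, and 0 to 2 for the HP1a fusion. The cause was not tested. In the fit of R libraries alone, Krt7 of the set with SD2 was removed by the filter and has no value. Depth limits Krt7, which had 5 to 20 counts per parent group of E14 cells.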
